A study of Mus musculus with 3 samples.

Results

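Interferon-stimulated genes are genes whose transcription is switched on when a cell senses interferon. The set described here holds the genes of a list of 47 symbols that have a probe set of their own on the array, which was the case for 41 of the 47 symbols among 19938 genes measured in the same way. The genes were listed by symbol, with earlier results of these data known. Of the 41 genes, 28 belong to the type I antiviral arm, 3 are interferon-gamma induced GTPases and 10 are regulators or Schlafens. The type I arm was taken here as sensors, Ifit and Oas genes, the Isg15 system and antiviral effectors. Isg15, Oas1g, Gbp2, Igtp and Irgm2 had only probe sets shared with another gene symbol, and Ifi44 had none in the annotation used here. These 6 symbols were therefore dropped, among them 3 of the 6 listed GTPases.

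The samples were healing tissue from the backs of C57Bl/6 mice, an inbred strain, aged 6 weeks. All animals had a skin excision of 1.5 cm2 that took epidermis and dermis, and by the labels they differed in the day of collection, which was day 10, day 12 or day 14 after wounding. Tissue of 3 mice was pooled for each day and measured on 1 one-colour array, and the labels state that unwounded skin and follicles at the wound edge were kept out. Unwounded skin was not analysed here, so each day is set against another wound day and no resting level is known.

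With 1 array per day there was no replicate error, no test was made, and every difference below compares 2 pools. Values are log2 expression as deposited. A difference of 1 is a 2-fold difference, differences are later day minus earlier day, the first interval is day 12 minus day 10, the second is day 14 minus day 12 and the whole span is day 14 minus day 10, and a member is counted as standing apart at 1.5-fold, which is 0.58 on the log2 scale. The only spread that can be had is the one between probe sets of the same gene. In 999 genes with several probe sets, a probe set's difference deviated from its gene's mean with a robust SD of 0.03 for the first interval, 0.03 for the second and 0.05 for the whole span. In size, the deviation's 95th percentile was 0.20, 0.16 and 0.24 for them in that order. This is technical spread within arrays and does not cover differences between animals. Each gene's mean includes the probe set itself, which makes the spread smaller. A difference just beyond a percentile is therefore not to be read as a detected one. Array medians over 35556 probe sets were 7.53, 7.55 and 7.53 on days 10, 12 and 14, and 23.1% of probe sets had exactly the same value on every array, so a difference of 0.00 is no precise measurement. In pooled tissue, a change in the number of cells of a type and a change in the RNA made per cell cannot be told apart.

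As background, type I interferons are induced when sensors such as RIG-I and MDA5 detect foreign or misplaced nucleic acid. Their receptor activates a complex that contains Stat2 and Irf9 and binds the interferon-stimulated response element in the promoters of antiviral genes. Interferon-gamma comes mainly from T and NK cells and acts through the gamma-activated site, which induces Irf1 and families of large GTPases that attack vacuoles holding microbes. In skin wounds, plasmacytoid dendritic cells, macrophages and keratinocytes are known sources of type I interferon or responders to it.

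The promoters of several members are shown because the response element was more frequent among the members than among all genes. Sequences are RefSeq windows of the GRCm38.p6 assembly that run from 250 bases before to 50 bases after a gene's start, and 31 of the 41 genes had at least 1 window. Each is printed 5′ to 3′ along the gene's strand, in lower case, with each match to the response element core in capitals. The core searched was GAAANNGAAA on either strand, where N is any base, and matches may overlap. The first 5 genes hold matches, while Slfn4 and Ifitm1, the members lowest relative to the earlier day over the second and the first interval, have no match in their windows. Slfn4 was also 1.003 higher over the first interval, and Irf7, which was 0.67 higher, has no match either. A further window of Gbp3, not printed, holds no match.
Ifit1 (chr19:34640639-34640938, plus strand): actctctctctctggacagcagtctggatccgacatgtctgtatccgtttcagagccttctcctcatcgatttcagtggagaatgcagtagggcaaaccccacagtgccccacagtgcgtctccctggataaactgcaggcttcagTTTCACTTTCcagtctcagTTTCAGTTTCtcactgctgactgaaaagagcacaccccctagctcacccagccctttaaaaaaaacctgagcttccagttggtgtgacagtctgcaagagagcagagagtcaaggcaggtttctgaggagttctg
Ifit3 (chr19:34583279-34583578, plus strand): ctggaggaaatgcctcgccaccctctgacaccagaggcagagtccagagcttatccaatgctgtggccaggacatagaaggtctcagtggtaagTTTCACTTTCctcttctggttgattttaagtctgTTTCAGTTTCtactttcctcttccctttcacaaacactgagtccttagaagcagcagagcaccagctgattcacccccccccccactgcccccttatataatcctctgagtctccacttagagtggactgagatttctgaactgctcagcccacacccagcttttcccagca
Ifi205 (chr1:174031706-174032005, minus strand): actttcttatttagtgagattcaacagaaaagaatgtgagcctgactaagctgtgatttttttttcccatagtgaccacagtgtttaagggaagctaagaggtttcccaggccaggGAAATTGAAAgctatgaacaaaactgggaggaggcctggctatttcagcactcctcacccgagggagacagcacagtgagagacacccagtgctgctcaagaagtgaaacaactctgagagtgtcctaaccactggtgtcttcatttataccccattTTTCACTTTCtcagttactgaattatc
Gbp3 (chr3:142559794-142560093, plus strand): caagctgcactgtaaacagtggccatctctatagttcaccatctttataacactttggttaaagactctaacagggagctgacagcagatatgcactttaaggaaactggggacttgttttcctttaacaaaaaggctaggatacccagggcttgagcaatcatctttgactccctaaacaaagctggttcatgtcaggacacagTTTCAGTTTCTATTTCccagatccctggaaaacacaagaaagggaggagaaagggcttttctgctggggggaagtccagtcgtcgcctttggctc
Irgm1 (chr11:48871371-48871670, minus strand): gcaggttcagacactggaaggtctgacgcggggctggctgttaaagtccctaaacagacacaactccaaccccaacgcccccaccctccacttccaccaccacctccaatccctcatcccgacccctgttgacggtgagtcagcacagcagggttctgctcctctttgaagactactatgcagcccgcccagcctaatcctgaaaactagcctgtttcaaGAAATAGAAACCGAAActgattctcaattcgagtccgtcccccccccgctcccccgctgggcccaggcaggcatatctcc
Slfn4 (chr11:83174936-83175235, plus strand): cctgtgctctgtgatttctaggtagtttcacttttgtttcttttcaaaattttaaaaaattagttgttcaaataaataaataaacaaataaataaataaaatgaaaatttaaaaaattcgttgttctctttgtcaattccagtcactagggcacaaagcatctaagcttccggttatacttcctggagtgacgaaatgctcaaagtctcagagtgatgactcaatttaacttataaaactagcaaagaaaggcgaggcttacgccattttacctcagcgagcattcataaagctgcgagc
Ifitm1 (chr7:140967826-140968125, plus strand): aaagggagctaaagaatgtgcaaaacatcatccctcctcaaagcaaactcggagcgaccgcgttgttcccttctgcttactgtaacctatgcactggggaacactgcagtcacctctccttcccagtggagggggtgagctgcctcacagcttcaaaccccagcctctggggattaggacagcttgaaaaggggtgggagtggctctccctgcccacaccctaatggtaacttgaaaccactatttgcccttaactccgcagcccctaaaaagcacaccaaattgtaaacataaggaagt

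Of the 31 members with a window, 16 held the response element core, or 51.6%, against 3.99% of all 27025 genes with a window. The core was found in 11 of 19 type I antiviral genes, in both GTPases with a window, Gbp3 and Irgm1, and in 3 of 10 regulators and Schlafens. Ifit1 and Ifit3 each held 2 cores, starting 104 and 85 bases before the start in Ifit1 and 156 and 122 bases before it in Ifit3. In Gbp3 and Irgm1 the 2 cores overlapped each other and lay within 45 bases of the start. The gamma-activated site, searched as TTCNNNGAA, which reads the same on both strands, was found in 9 of the 31 members, or 29.0%, against 9.55% of all genes. By arm, these were 7 of 19 type I antiviral genes, 2 of 10 regulators and Schlafens and 0 of the 2 measured GTPases with a window. Among the GTPases dropped for shared probe sets, Igtp and Irgm2 each held 1 such site, 45 and 75 bases before the start. Gbp2, also dropped, held none. The 2 regulators were Irf1, a known target of interferon-gamma, with 1 such site 90 bases before its start, and Irf8 with 2. In Bst2 and Ifitm3 a gamma-activated site overlapped a response element core. These counts describe letters in a fixed window and do not show binding.

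**Figure D1:**
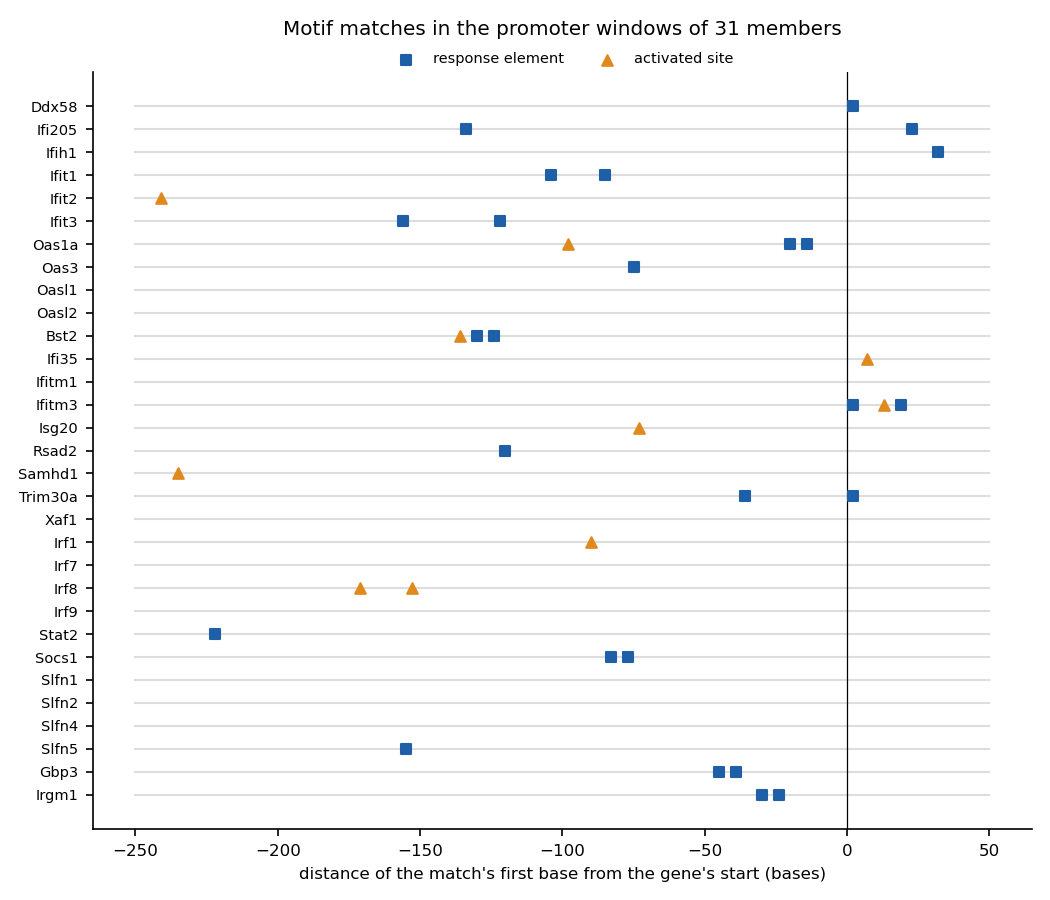
Position of each match to the response element core (squares) and to the gamma-activated site (triangles) in the promoter windows of 31 measured members, in bases from the gene's start at 0; windows of genes with several starts are laid over each other. The core was present in 16 of the 31 genes and lay in the last 156 bases before the start in Ifit1, Ifit3, Gbp3 and Irgm1.

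The differences between days of members with and without the core had similar medians and overlapping ranges. Over the first interval the median difference was 0.37 over the 16 genes with the core (range −0.14 to 0.78) and 0.34 over the 15 without it (range −0.93 to 1.003). Over the second interval the medians were −0.32 and −0.26.

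Most of these genes were highest on day 12. Of the 41 genes, 33 had their highest value on day 12, 4 on day 10 and 0 on day 14, and 4 shared the highest value between days. Over all 19938 genes, 8.78% were highest on day 12, and this share was 14.4% among the 9969 genes whose mean over the days was at or above the median of all genes. By arm, 22 of 28 type I antiviral genes, 8 of 10 regulators and Schlafens and each of the 3 GTPases were highest on day 12. The comparisons of day 12 with day 10 and of day 14 with day 12 share the day 12 array, so a high or low reading of that array would enter both.

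**Figure D2:**
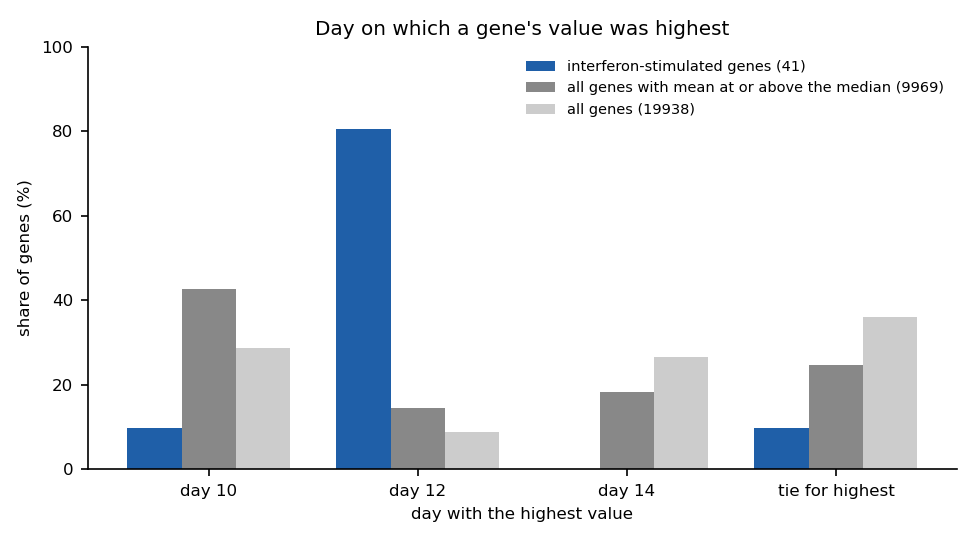
Share of genes, in percent, whose highest log2 value fell on day 10, day 12 or day 14 or was tied between days, for the 41 interferon-stimulated genes, the 9969 genes with a mean at or above the median, and all 19938 genes. Day 12 held 33 of the 41 members, against 14.4% and 8.78% of the other sets.

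The comparison of day 12 with day 10 asks which of these genes differed over the first interval. Of the 41 genes, 34 were higher on day 12, 5 were lower and 2 were equal, while 25.5% of all genes were higher and 34.5% were lower. Among genes with a mean at or above the median, 32.8% were higher. The median difference was 0.37, against 0.00 over all genes. At least 1.5-fold higher were 8 members, where 2.33% of all genes were, or 3.79% of those with a mean at or above the median. They were Iigp1, Slfn4, Ifi205, Ifit3, Irf7, Ifih1, Gbp3 and Zbp1, and Iigp1 and Slfn4 also passed 2-fold. Ifitm1 was the 1 member at least 1.5-fold lower, as were 0.958% of all genes. The median was 0.36 for the type I arm, 0.62 for the 3 GTPases and 0.30 for regulators and Schlafens.

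The comparison of day 14 with day 12 asks the same of the second interval. Of the 41 genes, 38 were lower on day 14, 1 was higher and 2 were equal, while 30.8% of all genes were lower and 32.7% were higher. Among genes with a mean at or above the median, 49.8% were lower. The median difference was −0.33, against 0.00 over all genes. At least 1.5-fold lower were 7 members, where 0.712% of all genes were, or 1.05% of those with a mean at or above the median. They were Slfn4, Slfn1, Rsad2, Rtp4, Dhx58, Mx1 and Usp18. Dhx58, Mx1 and Usp18 lay just past the threshold, at −0.61, −0.59 and −0.59, and these 3 fell short of it when each array was centred on its median, which left 4 members. None of the 41 was at least 1.5-fold higher, as were 0.271% of all genes. The medians were −0.35 for the type I arm, −0.30 for the GTPases and −0.17 for regulators and Schlafens.

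The comparison of day 14 with day 10 spans both intervals. On day 14, 17 members were higher than on day 10, 20 were lower and 4 were equal, while 34.9% of all genes were higher and 35.6% were lower. The median difference was 0.00, as it was over all genes. Iigp1 was the 1 member at least 1.5-fold higher, where 3.11% of all genes were, and Ifitm1 and Slfn4 were at least 1.5-fold lower, where 2.98% of all genes were. Under quantile normalization and under cyclic loess, 2 members were at least 1.5-fold higher, the other being Ifi205 at 0.60 and 0.59. These shares lie near the background. The median was −0.02 for the 28 type I antiviral genes, which turned to 0.0356 under quantile normalization and 0.01 under cyclic loess, 0.36 for the 3 GTPases and 0.00 for regulators and Schlafens.

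**Figure D3:**
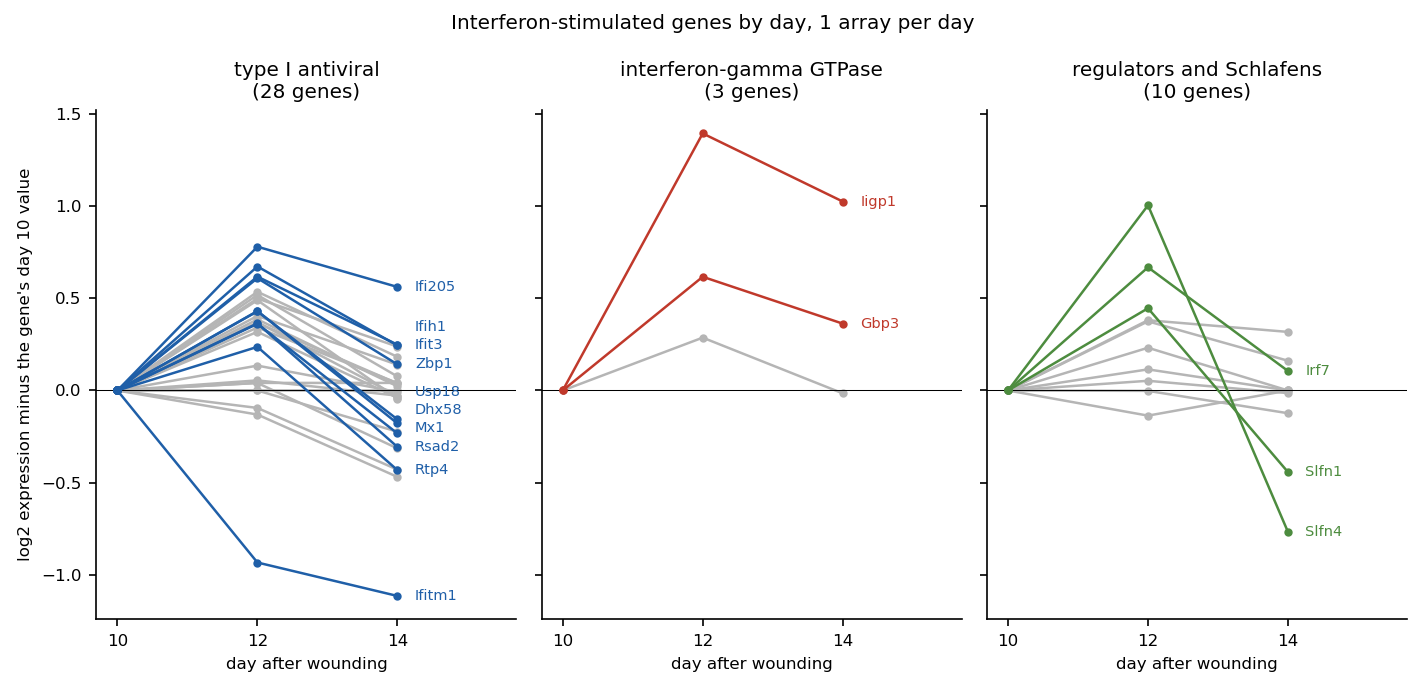
Log2 expression of each member on days 10, 12 and 14 after wounding, minus the gene's own day 10 value, in the type I antiviral arm (28 genes), the GTPases (3) and the regulators and Schlafens (10); each line is 1 gene with 1 array per day, and named, coloured lines are genes at least 1.5-fold apart between any pair of days. Most lines peak on day 12, Ifitm1 lies below its day 10 value on both later days, and Iigp1 and Gbp3 stay above theirs on day 14.

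**Figure D4:**
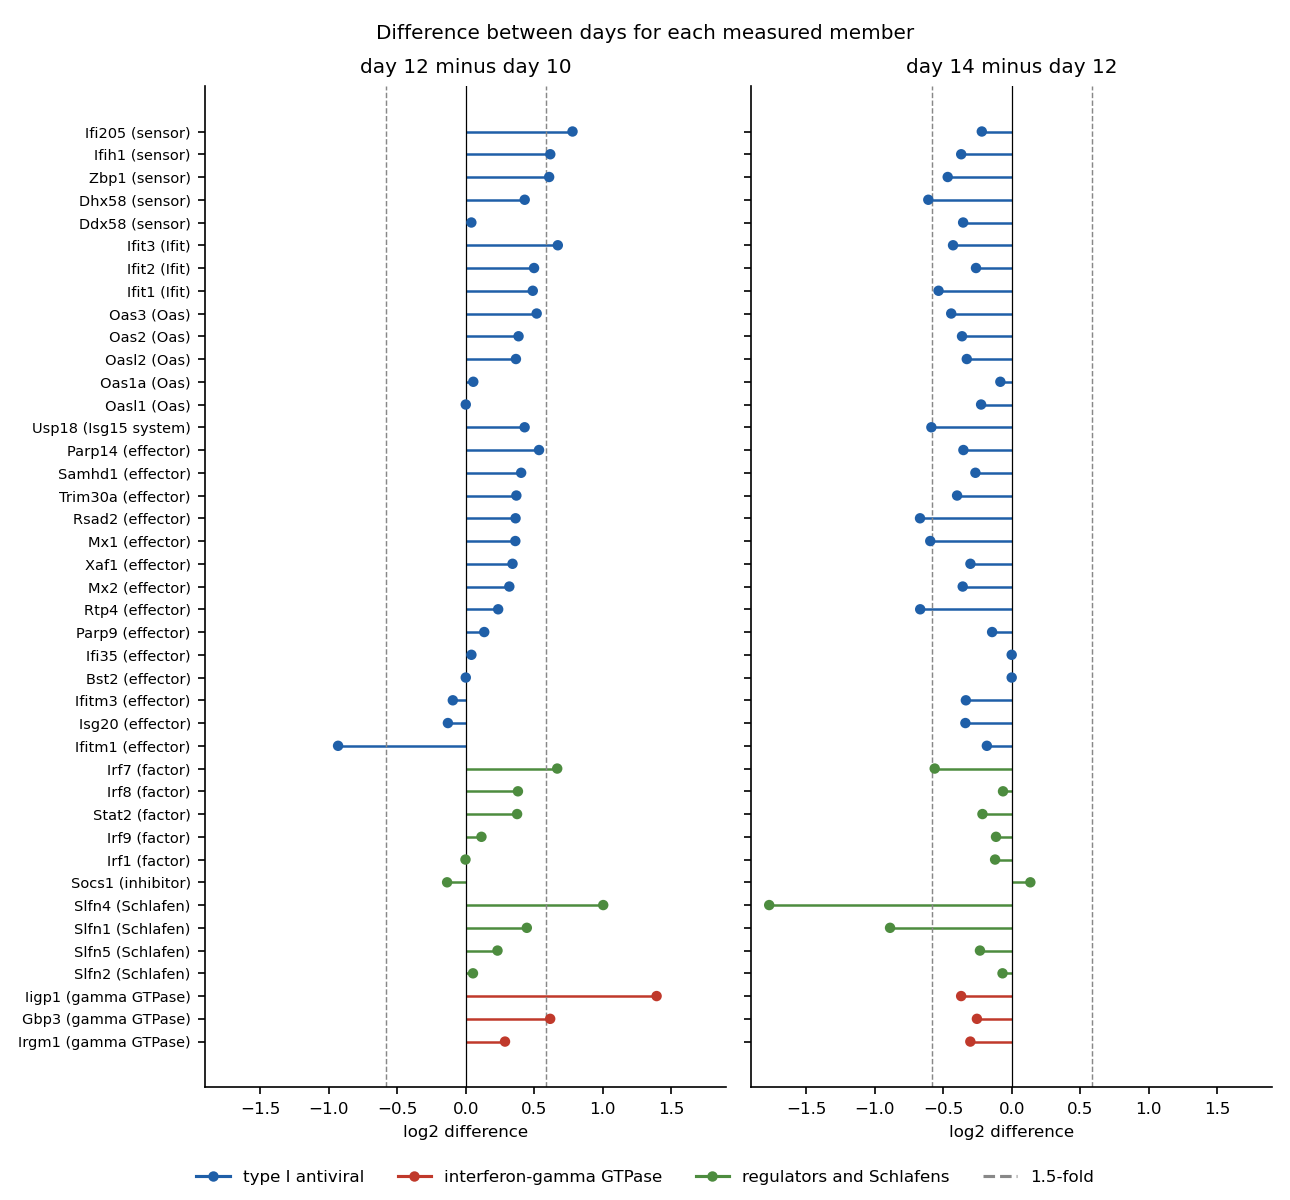
Log2 difference of each of the 41 members on day 12 minus day 10 (left) and day 14 minus day 12 (right), 1 array per day, grouped by role; dashed lines mark 1.5-fold. On the left 34 points lie right of 0, and on the right 38 lie left of it, with Slfn4 at −1.77.

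Among the type I antiviral genes, the sensors had a median difference of 0.61 over the first interval. Ifih1, which encodes the long double-stranded RNA sensor MDA5, had log2 values of 9.59, 10.21 and 9.84 on days 10, 12 and 14. Zbp1, a sensor of Z-form nucleic acid that can start necroptosis, had 8.79, 9.40 and 8.93. Dhx58, which encodes the related helicase LGP2, had 8.43, 8.86 and 8.25. All 3 were highest on day 12. On day 14, Dhx58 and Zbp1 differed from their day 10 values by −0.18 and 0.14, inside the 95th percentile of the spread between probe sets. Ifih1 differed by 0.25, just beyond it. Ddx58, which encodes RIG-I, a sensor of uncapped RNA ends, had 10.70, 10.74 and 10.39. Its difference of 0.04 over the first interval is inside the 95th percentile of the spread between probe sets, and its difference of −0.35 over the second interval is beyond it. Ifi205, of the HIN-200 family of interferon-inducible nuclear proteins, had 10.17, 10.94 and 10.73. It had the largest day 12 difference of the type I arm, 0.78 or 1.72-fold, and stayed 0.56 above its day 10 value on day 14.

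Of the Ifit family, Ifit1 encodes a protein that binds RNA whose cap lacks the host's marks. Ifit3 had log2 values of 9.71, 10.38 and 9.95 on days 10, 12 and 14, and its day 12 difference of 0.67 was the largest of the family. Ifit1 had 9.42, 9.90 and 9.37, so that its day 14 value was below that of day 10 by less than the robust SD between probe sets. Ifit2 had 8.66, 9.15 and 8.89. All 3 were higher on day 12 than on either other day, and the printed windows of Ifit1 and Ifit3 hold 2 cores each while those of Ifit2 hold none.

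The Oas enzymes make an oligoadenylate messenger that switches on RNase L, which degrades RNA. Of the 5 measured Oas genes, 4 were higher on day 12 than on day 10 and 1 was equal, and all 5 were lower on day 14 than on day 12. Oas3, Oas2 and Oasl2 differed by 0.52, 0.39 and 0.37 on day 12 and by −0.44, −0.36 and −0.33 on day 14. Oas1a differed by 0.05 and −0.08, both inside the 95th percentiles of the spread between probe sets. With probe sets of several symbols added, its differences were 0.21 and −0.30, beyond those percentiles. Oasl1, which in the mouse restrains translation of Irf7, had equal values on days 10 and 12 and a difference of −0.22 over the second interval. Oas1a and Oas3 belong to the 4 members whose mean was below the median of all genes, together with Mx1 and Mx2, and detection of single probe sets is unknown.

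Of the Isg15 system, in which a ubiquitin-like protein is joined to new proteins, Usp18 was measured. Usp18, which removes Isg15 and blocks signalling at the type I receptor, had 9.51, 9.94 and 9.36 on days 10, 12 and 14. It was thus highest on day 12. On day 14 it lay 0.16 below its day 10 value, which is inside the 95th percentile of the spread between probe sets.

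Of the 14 antiviral effectors, 10 were higher on day 12 than on day 10, 3 were lower and 1 was equal. Rsad2, which encodes viperin, an enzyme that makes a chain-ending nucleotide, had 8.58, 8.94 and 8.27 on days 10, 12 and 14. Rtp4, an interferon-induced transporter-like protein gene, had 10.00, 10.24 and 9.57. Mx1, a dynamin-like GTPase gene that is defective in most inbred mouse strains, had 7.09, 7.45 and 6.86. These 3 genes were highest on day 12 and lowest on day 14. Mx2 differed by 0.32 over the first interval and by −0.36 over the second interval. Parp14, an ADP-ribosyltransferase gene, differed by 0.53 and −0.35, whereas its relative Parp9 differed by 0.13 and −0.14. Samhd1, which lowers the pool of deoxynucleotides, differed by 0.40 and −0.26, Trim30a by 0.37 and −0.40, and Xaf1, a pro-apoptotic gene, by 0.34 and −0.30. These 5 genes thus had day 14 values within 0.18 of their day 10 values.

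A few effectors did not have this shape. Ifitm1, which encodes a membrane protein that limits virus entry, had log2 values of 10.59, 9.66 and 9.48 on days 10, 12 and 14. It was 2.16-fold lower on day 14 than on day 10, and its 2 probe sets differed by −0.9998 and −1.23 over that span. Ifitm3, of the same family, had 12.66, 12.56 and 12.23, and Isg20, an RNA exonuclease gene, had 10.44, 10.31 and 9.97. These 3 were highest on day 10 and lowest on day 14. Bst2, which encodes tetherin, a protein that holds budding virus at the membrane, had equal values on every array, and Ifi35 differed by 0.04 over the first interval and by 0.00 over the second interval. Ifitm2, which is no member, belongs to the same gene family and was chosen after its values were seen, differed by −0.06 over the first interval and by −0.08 over the second interval.

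The transcription factors differed among themselves. Irf7, the main amplifier of interferon-alpha genes, had 9.72, 10.39 and 9.83 on days 10, 12 and 14, a difference of 0.67 on day 12 and of −0.56 over the second interval. Stat2 had 9.71, 10.08 and 9.87, and Irf9, its partner in the type I complex, had 10.01, 10.12 and 10.01. Irf8, which is also a factor of monocytes and dendritic cells, had 9.72, 10.11 and 10.04. Irf7 and Stat2 were highest on day 12 and lower on day 14, Irf9 moved by 0.11 at most, which is inside the 95th percentile of the spread between probe sets, and Irf8 stayed 0.32 above its day 10 value on day 14. Irf1, the factor induced by interferon-gamma, averaged 8.51, 8.51 and 8.39, but its 2 probe sets disagreed. One of them was constant at 7.11 and the other had 9.91, 9.91 and 9.67. Socs1, an inhibitor of the receptor kinases, had 8.55, 8.42 and 8.55 and was the 1 member that was higher on day 14 than on day 12. Its differences of −0.14 and 0.14 are inside the 95th percentiles of the spread.

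The Schlafens are a family of growth and immune regulators with several interferon-inducible members. Slfn4, which is made mainly by myeloid cells, had 9.28, 10.28 and 8.51 on days 10, 12 and 14. Its difference was 1.003 over the first interval and it was 3.41-fold lower at the end of the second, the largest difference of any member. Slfn1 had 8.41, 8.86 and 7.97. Both were lowest on day 14. Slfn5 differed by 0.23 over the first interval and by −0.23 over the second interval, and Slfn2, which keeps T cells quiescent, by 0.05 and −0.07. Of the 4 other Schlafens measured, 3 were higher on day 12 and 1 was equal, and the largest day 14 difference was −0.49 for Slfn9, followed by −0.48 for Slfn8 and −0.41 for Slfn10-ps.

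The interferon-gamma induced GTPases are described apart. Iigp1, an immunity-related GTPase that loads onto vacuoles of intracellular parasites, had 7.94, 9.34 and 8.97 on days 10, 12 and 14. Gbp3, a guanylate-binding protein gene, had 8.75, 9.36 and 9.11. Irgm1, a regulator of the immunity-related GTPases, had 9.58, 9.87 and 9.57. All 3 were highest on day 12. Iigp1 was 2.63-fold higher on day 12 than on day 10, the largest day 12 difference of any member, and was still 1.02 above its day 10 value on day 14. Gbp3 stayed 0.36 above, whereas Irgm1 differed from day 10 by −0.02.

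Other genes of these arms that are not members were counted from lists. Of 23 further interferon-gamma genes measured, 19 were higher on day 12 than on day 10, 2 were lower and 2 were equal, with a median of 0.34, and 6 were at least 1.5-fold higher. Over the second interval, 16 were lower and 4 were higher, with a median of −0.03, and against day 10 the median was 0.19, with 5 genes at least 1.5-fold higher. Cxcl9, a T cell attractant induced by interferon-gamma, had 9.28, 11.19 and 10.61 on days 10, 12 and 14, and Gbp4 had 8.11, 9.52 and 9.12. Gbp8 had 7.89, 8.77 and 8.66, and Nlrc5, the activator of class I antigen presentation genes, had 8.51, 9.21 and 9.18. These 4 stayed above their day 10 values on day 14 by 0.67 or more, a shape shared by Iigp1. They are the genes of the list named for their large differences. Of all 23, 16 were higher on day 14 than on day 10, 3 were lower and 4 were equal. Among the equal ones was Cd274, which was chosen after its values were seen and encodes PD-L1, at 9.33, 9.94 and 9.33.

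Of 37 further type I genes, 27 were higher on day 12 than on day 10, 6 were lower and 4 were equal, with a median of 0.17. Over the second interval, 32 were lower and 1 was higher, with a median of −0.21, and against day 10 the median was 0.00. Phf11d had 9.14, 9.73 and 9.14 on days 10, 12 and 14, and Ms4a4c, a gene of monocytes and other leukocytes, had 9.58, 10.08 and 9.35. Both were highest on day 12. Cxcl10, a chemokine gene driven by either interferon and by other inflammatory signals, had 10.13, 9.91 and 9.26, and Lgals9, a galectin gene, had 11.08, 10.74 and 10.45. Both were highest on day 10, as was Ifitm1 among the members. The difference between the gamma and type I lists was not tested, because each day had 1 array.

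Of 16 interferon ligand genes measured, 8 lay under the lower quartile of all probe sets on every array, among them Ifnb1 at 5.90, 5.91 and 5.91 on days 10, 12 and 14. Ifng had 6.38, 6.44 and 6.44, just above the quartile, which was 5.91, 5.92 and 5.92. None of the 16 was 1.5-fold apart between any pair of days, and the median over the first interval was 0.00, as it was over all genes. Of all genes, 2.33%, 0.271% and 3.11% were at least 1.5-fold higher over the first interval, the second interval and the whole span. At least 1.5-fold lower were 0.958%, 0.712% and 2.98%, so 0 of 16 lies near the background. Ifnl2, an interferon-lambda gene, had 8.24, 8.50 and 8.80 and Ifna5 had 8.22, 8.24 and 8.43, so that neither was highest on day 12. Detection is unknown, so these arrays do not show whether a ligand was made, neither for the 8 genes under the lower quartile nor for Ifng and the others.

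None of the 6 receptor genes was 1.5-fold apart between days, which by the shares over all genes given above also lies near the background. Ifnar1 and Ifnar2, the chains of the type I receptor, differed by 0.00 and −0.11 over the first interval and by −0.01 and −0.24 over the second interval. Ifngr1 and Ifngr2, the chains of the gamma receptor, differed by −0.02 and −0.03 on day 12 and by −0.11 and 0.00 on day 14, and Il10rb, a chain of the lambda receptor, by 0.10 and −0.11. Ifnlr1, the specific chain of the lambda receptor, differed by 0.17 and 0.18. Over the whole span Ifnlr1 differed by 0.35 and Ifnar2 by −0.35, both beyond the 95th percentile of the spread between probe sets. Of 11 further signalling genes, 8 were higher on day 12 and 1 was lower, with a median of 0.06. Pias1, Ptpn6 and Irf5 differed by 0.29, 0.29 and 0.28 over the first interval, and Ptpn2 by 0.12. Of 16 further genes of nucleic acid sensing, 11 were higher on day 12 and 12 were lower over the second interval. The HIN-200 gene Ifi203 had 10.27, 10.94 and 10.49 on days 10, 12 and 14, Tlr8 had 9.90, 10.13 and 9.72, Tlr7 had 9.29, 9.42 and 9.05, and Traf6 had 10.70, 11.01 and 11.17. All but Traf6 were highest on day 12.

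General leukocyte markers and macrophage and monocyte markers mostly moved in the same direction as the members, with medians of smaller size. Of 8 general leukocyte markers, 6 were higher on day 12 than on day 10 and 0 were lower, with a median of 0.10, and 7 were lower over the second interval, at a median of −0.10. Their mean log2 level was 10.89, 11.10 and 10.97 on days 10, 12 and 14. The differences on day 12 were 0.61 for Itgb2, 0.54 for Ptprc, 0.28 for Cd53 and 0.11 for Lcp1. Of 14 macrophage and monocyte markers, 12 were higher on day 12, with a median of 0.15, and 13 were lower over the second interval, with a median of −0.23, at mean levels of 10.53, 10.73 and 10.39. Cd14, the receptor for bacterial lipopolysaccharide, had 9.66, 10.32 and 8.95, and Itgam had 10.59, 11.12 and 10.46. Fcgr1, which is also on the interferon-gamma list, had 9.77, 10.01 and 9.44 and Ms4a7 had 10.81, 10.90 and 10.38. Their part in the differences of the members was not tested.

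Dendritic and Langerhans cell markers had their highest mean level on day 14, whereas those of plasmacytoid dendritic cells and of T and NK cells had theirs on day 12. Of 11 dendritic and Langerhans cell markers, 9 were higher on day 12 than on day 10 and 0 were lower, with a median of 0.24, and 8 were higher again over the second interval, at mean levels of 7.95, 8.31 and 8.44. Itgax had 9.44, 10.51 and 10.81, Epcam had 8.27, 9.49 and 9.82, Cd209a had 9.85, 10.08 and 10.31, and Cd83 had 9.11, 9.35 and 9.26. Of 11 plasmacytoid dendritic cell markers, which include the member Irf8, 8 were higher on day 12 and 1 was lower, with a median of 0.13 and mean levels of 8.85, 9.004 and 8.96. Over the second interval 6 of them were lower, 4 were higher and 1 was equal, with a median of −0.01. The 4 higher were Ccr9, Cox6a2, Spib and Pacsin1, at 0.13, 0.11, 0.08 and 0.06, all with means below the median of genes. Siglech, the defining receptor gene of plasmacytoid dendritic cells, had 7.38, 7.47 and 7.47, Tlr9 had 9.18, 9.48 and 9.34, and Lair1 had 8.76, 9.01 and 8.76. Of 15 T and NK cell markers, 8 were higher on day 12, 0 were lower and 7 were equal, and over the second interval 5 were lower and 4 were higher, at mean levels of 6.97, 7.16 and 7.06. Of this list, Klrb1c, Eomes and Gzma lay under the lower quartile on every array. Cd3e and Cd4, at 8.64 and 8.67 on day 10, differed by 0.00 over the first interval. The 4 genes higher over the second interval were Cd3g, Cd8a, Cd3d and Cd3e, at 0.14, 0.06, 0.04 and 0.02. Cd3g had 7.79, 8.03 and 8.17 on days 10, 12 and 14. Nkg7, Il2rb, Gzmb and Ncr1, chosen after their values were seen, were highest on day 12. Nkg7 had 7.19, 8.05 and 7.78, Il2rb had 7.92, 8.44 and 8.08, and Gzmb had 8.003, 8.31 and 7.66. Ncr1 differed by 0.40 over the first interval and by −0.33 over the second.

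Of 12 neutrophil markers, 4 were higher and 4 lower on day 12 than on day 10, and over the second interval 6 were lower and 3 higher, at mean levels of 7.91, 7.96 and 7.72, and S100a8, S100a9, Cxcr2 and Csf3r differed by −0.26, −0.30, 0.34 and 0.00 over the first interval. Mmp8, a neutrophil collagenase gene chosen after its values were seen, had 7.96, 8.77 and 6.35, the widest range of that list. The list's mean was highest on day 12 only through this gene. The median difference of the list was 0.00 over the first interval and −0.02 over the second. Of 5 B cell markers, 1 was higher and 4 were equal, and Cd79a and Ms4a1 lay under the lower quartile on every array. The labelled tissue was borne out by its markers, since 10 keratinocyte markers had mean levels of 12.59, 12.78 and 12.85 on days 10, 12 and 14 and 9 fibroblast markers had 12.80, 12.72 and 12.66. Among keratinocyte markers, Lor, Ivl, Trp63 and Krt10 differed by 0.75, 0.57, 0.29 and 0.19 over the first interval. Fibroblast markers had a median of −0.03, with Thy1, Pdgfra, Pdgfrb and Lum at −0.33, −0.18, −0.12 and −0.10, and 6 of 7 endothelial markers were lower, with a median of −0.29 and Tie1, Tek, Emcn and Kdr at −0.53, −0.50, −0.32 and −0.29. The part of these shifts in the members' values was not tested.

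**Figure D5:**
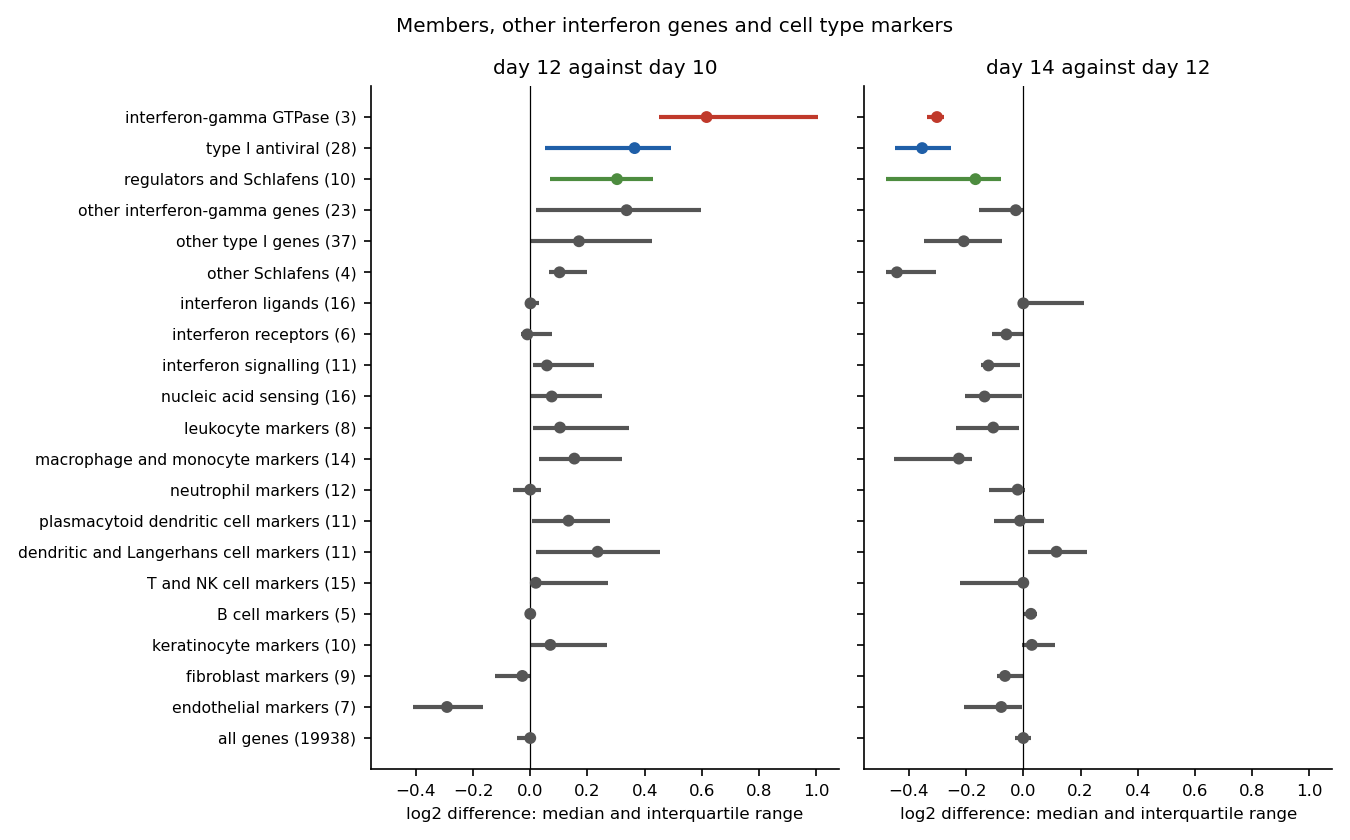
Median (points) and interquartile range (bars) of the log2 difference over the genes of each set, for day 12 against day 10 (left) and day 14 against day 12 (right), with the number of genes measured in brackets. The 3 arms of members lie right of 0 on day 12 and left of 0 on day 14, and macrophage and monocyte markers lie on the same sides at 0.15 and −0.23. The interferon ligands have a median of 0.00 in both panels, as have all genes.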

How the data were processed

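The deposited table gives a log2 value for each probe set on each of the arrays. Per the submitters' processing notes, RMA and Partek 6.6 were involved, in roles that are not stated, and RNA input was 250 ng per the labels' protocols. The log2 scale was taken from the range of the values. No background or detection values were used here. Symbols came from the platform annotation, which gave 1 symbol for 21789 of 35556 probe sets and several for 1621, and probe sets with 1 symbol were averaged per gene. Groups follow the time in the labels. With 1 array per day, later minus earlier day was described without tests, by counts at 1.5-fold and medians, beside the same over all genes, and no level filter was applied. Gene lists and members were chosen with earlier results of these data known. Every member is named, and of each other list the 4 genes with the largest difference among those with a mean at or above the median of genes (8.25). Also named are Ifnb1, Ifng, the type I and gamma receptor chains, defining markers and genes said to be chosen later. Some markers under the lower quartile are named too, as are plasmacytoid, T and NK cell markers that were higher over the second interval. Alternatives were median centring, quantile and cyclic loess normalization (limma 3.58.1), the brightest probe set, a mean level filter, equal values left out, several-symbol probe sets and 2-fold. Counting was tested on simulated data. Promoter windows were RefSeq's and were searched with Python 3.11.15.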

Additional observations from a re-analysis of the deposited data

How the results depend on the processing

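Each of 20 results was recomputed under the alternatives, which gave 139 values, of which 126 stayed within the spread between probe sets (medians) or within 1.5 times (counts) and 13 moved. The 33 members highest on day 12 became 35 with cyclic loess, 29 of 37 with the mean level filter and 38 of 46 with several-symbol probe sets, and the 16 promoters with the response element core stayed 16 with its last base left out, while the share over all genes became 9.76%. At 2-fold, the counts on day 12 against day 10 were 2 higher and 0 lower. On day 14 against day 12 they were 0 higher and 1 lower, and on day 14 against day 10 they were 1 higher and 1 lower. With arrays centred on their medians, 4 members passed 1.5-fold downward between day 14 and day 12. Under quantile normalization the second interval's medians became −0.29 for all members, −0.31 for the type I arm and −0.26 for the GTPases, and the type I median on day 14 against day 10 was 0.0356, so its sign turned from that of −0.02, as it did with cyclic loess at 0.01. Members at least 1.5-fold higher on day 14 against day 10 were 2 with quantile normalization and 2 with cyclic loess. On day 14 against day 12 the GTPase median was −0.27 with several-symbol probe sets, and that of regulators and Schlafens was −0.22 with the brightest probe set, which takes Irf1 from its brighter probe set. The cause of the other shifts was not tested. No paired analysis was possible because each day has 1 array, and leaving out a replicate was not possible either. Single pools, unknown detection and equal values limit the precision of small differences.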
